A study of Homo sapiens with 24 samples.

Results

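The replication-dependent histone genes of the human genome lie in clusters and encode the linker histone H1 and the core histones H2A, H2B, H3 and H4. The genes described here are the rows of both deposited count tables that are protein-coding by the gene type column and whose symbol begins with HIST1H, HIST2H or HIST3H. They number 70 of 58735 rows. By type they comprise 6 H1, 17 H2A, 18 H2B, 15 H3 and 14 H4 genes. The HIST1H cluster holds 55 of them on chromosome 6 between positions 25726132 and 27893843 (GRCh38). The HIST2H genes, 12 in number, lie on chromosome 1 between 143905556 and 149887916, and the 3 HIST3H genes on chromosome 1 between 228424845 and 228460470.

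These genes are transcribed mainly in S phase, when new DNA needs new nucleosomes. Their main transcripts carry no poly(A) tail and end in a 3′ stem-loop that is bound by SLBP, the stem-loop binding protein, and is cut with the help of the U7 small nuclear ribonucleoprotein. Libraries made from polyadenylated RNA therefore recover little of them, although several of these genes also give longer polyadenylated transcripts.

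RNA was sequenced from HEK293T, a line derived from human embryonic kidney, in 3 genotypes at 2 oxygen levels, with 4 libraries in each of 6 groups and 24 in all. The groups were MIR210HG-KO, MIR210-KO and WT at 1% oxygen (hypoxia) and MIR210HG-KO, MIR210-KO and WT at 21% oxygen (normoxia), each for 24 h. All groups grew in high-glucose DMEM with fetal bovine serum, and RNA was extracted in TRIzol and made into libraries with a NEBNext Ultra kit. MIR210 encodes a hypoxia-induced microRNA, and its host gene MIR210HG gives a long non-coding RNA. The labels state neither whether a knockout is 1 clone or a pool nor whether the 4 libraries of a group are separate cultures, so p-values measure only the spread between these libraries, which may be technical. The design asks how loss of either gene and low oxygen alter messenger RNA. Each oxygen level has its own deposited table, so oxygen level and table cannot be told apart.

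Depth was 25556776 to 37858947 counts per library, and histone genes held between 0.00559% and 0.0167% of them. MIR210HG had 0 counts in all 8 MIR210HG-KO libraries, against means of 20.7 CPM in hypoxia MIR210-KO, 19.1 in hypoxia WT, 3.48 in normoxia MIR210-KO and 5.70 in normoxia WT. The MIR210 row held 0 to 14 counts per library and does not check the MIR210-KO label. All 5 HEK293 markers, PAX2, GATA3, NEFM, NEFL and INA, were detected in every library. Their summed group means were 159, 565 and 509 CPM in hypoxia MIR210HG-KO, MIR210-KO and WT, and 119, 480 and 287 CPM in normoxia MIR210HG-KO, MIR210-KO and WT, and their part in the histone values was not tested. NEFM and NEFL made up most of each sum. In normoxia NEFM, NEFL and INA were higher in MIR210-KO than in WT. PAX2 (4.72 against 6.22 CPM) and GATA3 (11.5 against 13.6 CPM) were lower there. Of 5 kidney tubule markers LRP2 and AQP1 had counts in every library, UMOD was at 0 in all 24, and SLC34A1 and NPHS1 were at 0 in 14 and 10. The 5 summed to 43.3 to 47.2, 75.0 to 83.6 and 33.0 to 44.3 CPM in hypoxia MIR210HG-KO, MIR210-KO and WT, and to 39.3 to 57.7, 63.9 to 75.8 and 64.3 to 69.4 CPM in normoxia MIR210HG-KO, MIR210-KO and WT. Their part in the histone values was not tested either. Hypoxia WT 1 and 3, hypoxia MIR210-KO 1 and normoxia MIR210HG-KO 3 stood apart from their groups in an earlier analysis, and calls lost without them are named beside the result. In bulk RNA, fewer cells of a type and less RNA per cell cannot be told apart.

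The stem-loop was searched in the annotated transcripts (GENCODE 29, GRCh38), because a stem-loop followed by more transcript marks a gene with an annotated longer form. It was found in a transcript of 25 of the 70 genes, and in 18 of these at least 200 annotated bases followed it. Of the genes without a match, 37 had an annotated length that was a multiple of 3, as a coding sequence alone has. A missing match therefore does not show that a gene lacks the stem-loop. The most frequent form, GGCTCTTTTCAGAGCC, was found in 17 genes. The other forms were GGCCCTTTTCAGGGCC in 4 genes, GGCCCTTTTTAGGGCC in 3 and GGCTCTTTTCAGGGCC in 1. The examples below are the stem-loops of genes described by library or named in a comparison, each given 5′ to 3′ with the stem-loop in capitals.
HIST3H2A: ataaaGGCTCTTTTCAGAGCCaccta
HIST1H3H: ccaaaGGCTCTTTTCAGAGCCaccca
HIST1H2AG: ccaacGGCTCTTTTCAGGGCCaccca
HIST1H2BE: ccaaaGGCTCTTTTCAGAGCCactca
HIST1H4I: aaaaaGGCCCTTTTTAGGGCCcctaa
HIST2H4A: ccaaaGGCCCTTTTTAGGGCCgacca
Downstream of the stem-loop the annotated transcripts ran on for 390 bases in HIST3H2A, 769 in HIST1H3H, 1761 in HIST1H2AG, 430 in HIST1H2BE, 212 in HIST1H4I and 1167 in HIST2H4A.

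Promoters from RefSeq (GRCh38.p14), 250 bases before and 50 after the annotated gene start, were matched for 60 of the 70 genes. They were searched on both strands for TATAAA, the TATA box, for CCAAT and for ATTTGCAT, the octamer bound by POU-domain factors, and matches of different motifs may overlap. TATAAA was found in 66.7% of the histone promoters, against 11.5% of all 35116 RefSeq promoters of the same length. CCAAT was found in 85% of the histone promoters, against 34.6% of all promoters, and ATTTGCAT in 35%, against 1.77%. The octamer was in 68.8% of H2A and 69.2% of H2B promoters, in 7.69% of H3 promoters and in none of the 6 H1 or 12 H4 promoters. CCAAT was in every H1, H2A, H2B and H3 promoter and in 25% of H4 promoters. The promoters below belong to 4 genes that were higher in both knockouts than in WT in normoxia, of types H2B, H4 and H1. They are given 5′ to 3′ on the gene's strand with the motif matches in capitals.
HIST1H2BK, chr6:27146809-27147108, minus strand: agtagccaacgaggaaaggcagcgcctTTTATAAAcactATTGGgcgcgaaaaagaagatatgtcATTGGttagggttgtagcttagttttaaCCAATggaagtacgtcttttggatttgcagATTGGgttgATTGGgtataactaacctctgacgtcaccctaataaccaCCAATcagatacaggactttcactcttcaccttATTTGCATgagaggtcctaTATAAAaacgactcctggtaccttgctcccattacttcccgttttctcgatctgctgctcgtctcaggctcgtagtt
HIST1H2BJ, chr6:27132746-27133045, minus strand: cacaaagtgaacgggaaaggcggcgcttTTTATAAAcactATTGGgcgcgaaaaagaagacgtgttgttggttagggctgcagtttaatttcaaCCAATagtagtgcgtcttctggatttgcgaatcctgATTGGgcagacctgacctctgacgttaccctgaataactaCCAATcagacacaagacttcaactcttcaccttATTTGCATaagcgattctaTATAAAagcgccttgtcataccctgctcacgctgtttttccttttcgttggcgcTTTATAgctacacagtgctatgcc
HIST1H4I, chr6:27139032-27139331, plus strand: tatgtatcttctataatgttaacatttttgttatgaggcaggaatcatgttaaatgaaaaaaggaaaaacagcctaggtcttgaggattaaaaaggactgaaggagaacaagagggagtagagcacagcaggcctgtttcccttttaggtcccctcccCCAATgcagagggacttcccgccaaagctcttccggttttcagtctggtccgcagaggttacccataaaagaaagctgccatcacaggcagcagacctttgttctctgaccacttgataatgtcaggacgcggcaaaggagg
HIST1H1C, chr6:26056421-26056720, minus strand: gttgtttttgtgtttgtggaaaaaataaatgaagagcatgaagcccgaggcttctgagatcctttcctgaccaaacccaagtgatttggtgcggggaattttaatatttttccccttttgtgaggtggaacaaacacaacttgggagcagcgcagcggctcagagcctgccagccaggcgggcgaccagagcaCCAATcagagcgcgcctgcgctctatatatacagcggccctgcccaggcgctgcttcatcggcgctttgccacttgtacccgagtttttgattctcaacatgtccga
A match here is only a match of letters, and no binding was measured. The HIST1H4I stretch follows the RefSeq start and lies inside the gene as counted (chr6:27138588-27139881), which starts further upstream.

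Each level is a CPM value, a gene's count divided by the TMM-adjusted total of its library, and levels between genes are compared as mean CPM per kilobase of the gene length in the tables. HIST1H2BK, a core H2B gene, stood at 82.1 CPM per kilobase, ahead of HIST3H2A at 19.2, HIST1H1C at 15.0, HIST1H4I at 8.60, HIST1H2BD at 4.59 and HIST1H2BJ at 3.44. The low-count filter, which asks for about 0.354 CPM in 4 libraries, kept 31 genes for testing: 3 H1, 7 H2A, 12 H2B, 5 H3 and 4 H4. Of these, 14 had a mean of at least 1 CPM and 17 were below it. The other 39 were not tested, and none of them had a mean above 0.181 CPM. Because 14 of the tested genes reached the filter level as a group mean in fewer than all 6 groups, the counts of tested genes given here are descriptions of those 31 and not of all 70.

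The summed histone transcripts were higher in both knockouts than in WT and higher in hypoxia than in normoxia. The 70 genes summed to 132, 129, 125 and 116 CPM in hypoxia MIR210HG-KO, 158, 140.3, 145 and 149.7 in hypoxia MIR210-KO, and 101, 96.1, 106 and 90.4 in hypoxia WT. In normoxia the sums were 112, 107, 110.5 and 104 CPM in normoxia MIR210HG-KO, 112, 111, 123 and 111 in normoxia MIR210-KO, and 59.4, 59.1, 59.2 and 59.6 in normoxia WT. In hypoxia the 3 genotypes did not overlap, and in normoxia every knockout library was above every WT library while MIR210HG-KO and MIR210-KO overlapped. The mean sum in MIR210HG-KO was 1.28 times that of WT in hypoxia and 1.82 times in normoxia. For MIR210-KO the ratios to WT were 1.51 and 1.93. Hypoxia over normoxia gave 1.16 in MIR210HG-KO, 1.30 in MIR210-KO and 1.66 in WT.

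H2B genes made up the largest summed level in every group, and all 5 types had their lowest group mean in normoxia WT. The H2B sum averaged 60.4 ± 3.13 CPM in hypoxia MIR210HG-KO, 71.1 ± 2.32 in hypoxia MIR210-KO and 44.6 ± 2.97 in hypoxia WT (SD, n = 4 in each group). In normoxia it averaged 53.4 ± 2.56 CPM in normoxia MIR210HG-KO, 58.3 ± 3.08 in normoxia MIR210-KO and 26.0 ± 0.737 in normoxia WT. The H1 sum averaged 11.5 ± 0.508 CPM in hypoxia MIR210HG-KO, 18.6 ± 2.30 in hypoxia MIR210-KO and 14.3 ± 0.937 in hypoxia WT. In normoxia the H1 sum was 7.62 ± 0.417 CPM in normoxia MIR210HG-KO, 8.28 ± 0.822 in normoxia MIR210-KO and 3.99 ± 0.265 in normoxia WT, so that H1 in hypoxia MIR210HG-KO was below hypoxia WT while the H2A, H2B, H3 and H4 means were above it. HIST1H2BK alone is a large share of the total, and without it the sums averaged 93.8 CPM in hypoxia MIR210HG-KO, 108 in hypoxia MIR210-KO and 80.7 in hypoxia WT. Without it in normoxia they averaged 71.4 CPM in MIR210HG-KO, 70.7 in MIR210-KO and 42.2 in WT. Without HIST1H2BK, hypoxia MIR210HG-KO libraries (85.3 to 99.1 CPM) overlapped hypoxia WT (76.4 to 85.7), and hypoxia MIR210-KO (103 to 114) overlapped neither. The HIST3H sum was not higher in either knockout in hypoxia, at 20.9 CPM in MIR210HG-KO, 23.8 in MIR210-KO and 23.9 in WT. In normoxia it averaged 19.8, 21.5 and 15.4 CPM in MIR210HG-KO, MIR210-KO and WT.

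**Figure D1:**
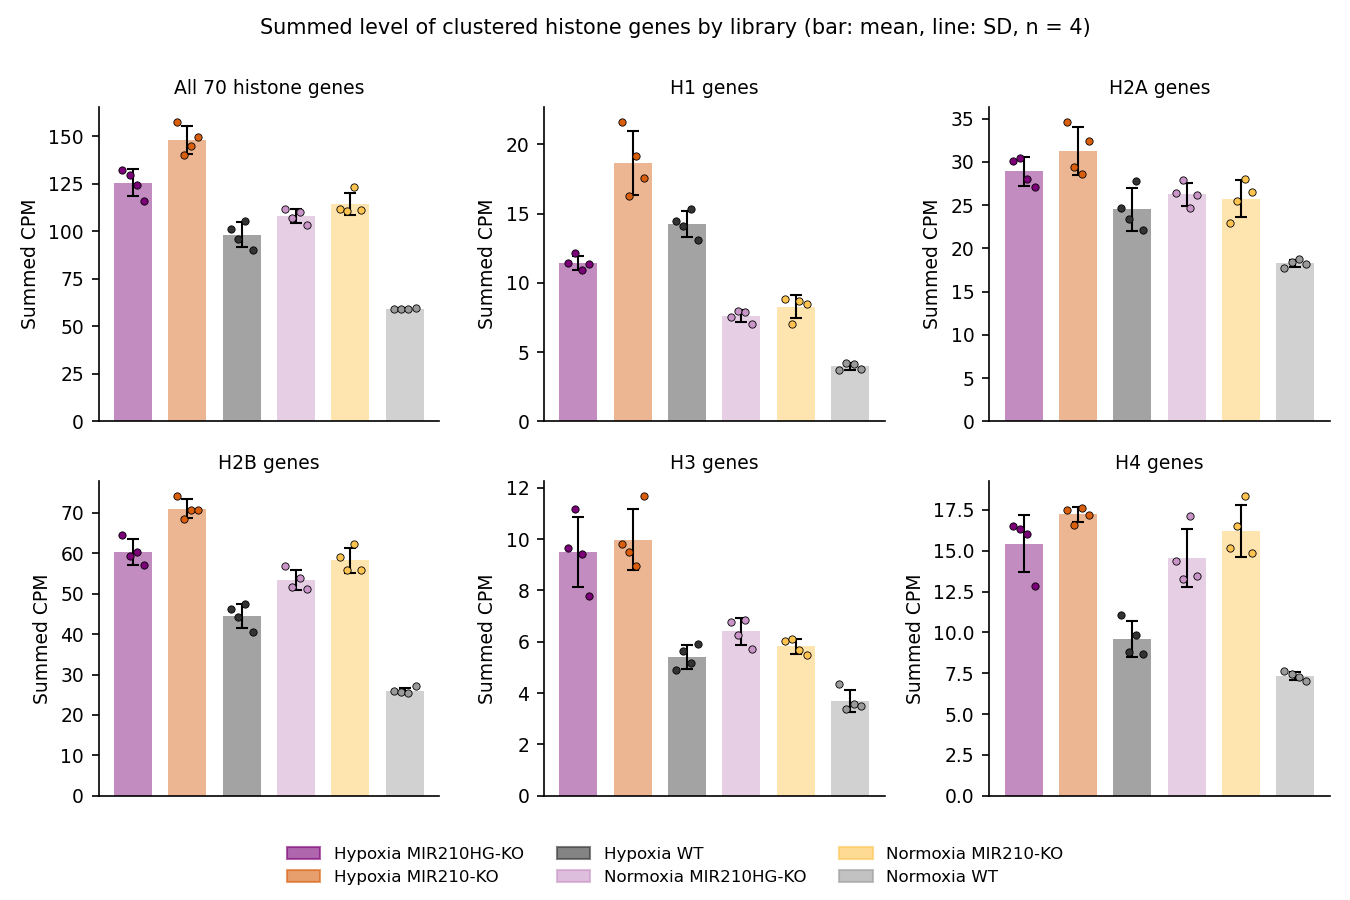
Summed level of histone genes in each library (CPM on the y axis, points), with bars for group means and error bars for the SD of 4 libraries, for all 70 genes and for each of the 5 types, the 6 groups along the x axis. Normoxia WT libraries sit between 59.1 and 59.6 CPM for the total, below every other library, and hypoxia MIR210-KO is highest, from 140.3 to 158 CPM.

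Between MIR210HG-KO and WT in normoxia, histone genes moved upward: HIST2H4A (1.90 ± 0.57, adjusted p = 0.00862), HIST1H3B (1.74 ± 0.42, adjusted p = 0.00136), HIST1H2BE (1.64 ± 0.57, adjusted p = 0.0233) and HIST1H2AC (1.59 ± 0.22, adjusted p = 8.88e-07) had the 4 largest changes among those called. Here and below a value with ± is a log2 fold change with its standard error from edgeR's quasi-likelihood test over 4 libraries per group, and a gene was called when its p, adjusted over all 19952 genes tested, was under 0.05. Of the 31 tested histone genes 18 rose (58.1%), where 15.6% of all genes tested were called higher. None fell, where 19.6% of all genes were called lower, and 13 were not called; edgeR gave 0 lower genes at an unadjusted p under 0.05 too, and DESeq2 called 0. The median over the 31 was 0.90, and over all genes -0.01. By type, 1 of 3 H1, 5 of 7 H2A, 7 of 12 H2B, 2 of 5 H3 and 3 of 4 H4 genes rose. The HIST1H2BE call was lost without normoxia WT 1 (adjusted p = 0.0872), WT 4 (0.0587), MIR210HG-KO 1 (0.106) or MIR210HG-KO 3 (0.0715), and with a covariate for long and short genes (0.0508).

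MIR210-KO in normoxia was set against the same 4 WT libraries. HIST2H4A (2.88 ± 0.51, adjusted p = 2.35e-05), HIST1H2BE (2.04 ± 0.54, adjusted p = 0.00245), HIST2H2AA4 (1.74 ± 0.52, adjusted p = 0.00722) and HIST1H2BN (1.59 ± 0.20, adjusted p = 4.86e-08) had the largest called changes. Of the 31 tested genes 13 rose (41.9%), where 22.6% of all genes were called higher. None fell, where 21.6% of all genes were called lower, with 0 at an unadjusted p under 0.05 by edgeR and 0 called by DESeq2. The median was 0.63 over the 31 and 0.01 over all genes. Called genes comprised 2 of 3 H1, 2 of 7 H2A, 6 of 12 H2B, 1 of 5 H3 and 2 of 4 H4. HIST2H2AA4 reached the filter level as a group mean only in the 2 MIR210-KO groups. Reads of HIST2H4A and HIST2H2AA4 are uncertain, since 97.5% and 97.1% of their 50-base windows also occur in another gene, HIST2H4B and HIST2H2AA3 above all.

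In hypoxia the knockouts again had more histone genes above than below WT. In MIR210HG-KO, HIST3H3, a testis-type H3 gene (1.96 ± 0.70, adjusted p = 0.0184), HIST1H3E (1.19 ± 0.16, adjusted p = 2.05e-07), HIST1H2AI (1.13 ± 0.25, adjusted p = 0.000317) and HIST1H2BC (1.08 ± 0.37, adjusted p = 0.0139) had the largest called increases. HIST3H2BB (-0.61 ± 0.15, adjusted p = 0.000806) and HIST1H1C (-0.32 ± 0.09, adjusted p = 0.00196) fell. In all 13 of 31 rose (41.9%), where 24.4% of all genes were called higher, and 2 fell (6.45%), where 30.2% were called lower. The median was 0.77 over the 31 and -0.03 over all genes. Neither risen nor fallen were 16 genes, among them 2 of the 3 H1 genes. Of the 50-base windows of HIST1H2AI, 62.3% also occur in another gene, HIST1H2AJ above all. The HIST3H3 call was lost without hypoxia WT 2 (adjusted p = 0.0548), WT 3 (0.0604), MIR210HG-KO 2 (0.112) or the 4 libraries that stood apart (0.123), and that of HIST1H2BC without MIR210HG-KO 3 (0.0839) or those 4 libraries (0.0636).

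In MIR210-KO under hypoxia, against the same hypoxia WT libraries, HIST3H3 (2.26 ± 0.68, adjusted p = 0.00514), HIST2H2AA4 (2.09 ± 0.46, adjusted p = 0.000252), HIST1H2BH (1.62 ± 0.48, adjusted p = 0.00462) and HIST1H1B, which encodes linker histone H1.5 (1.50 ± 0.48, adjusted p = 0.00810), rose most. HIST1H1B reached the filter level as a group mean in 1 group, and HIST1H2BH and HIST2H2AA4 in 2. These were MIR210-KO groups, so these genes were tested because of the level described here. HIST3H3 reached it in 0 groups. HIST3H2BB alone fell (-0.82 ± 0.15, adjusted p = 2.01e-05). Of the 31 tested genes 17 rose (54.8%), where 28.2% of all genes were called higher, and 1 fell (3.23%), where 27.7% were called lower. The median was 0.67 over the 31 and 0.02 over all genes. Called increases comprised 2 of 3 H1, 4 of 7 H2A, 6 of 12 H2B, 3 of 5 H3 and 2 of 4 H4 genes.

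Set directly against each other, the 2 knockouts differed at several histone genes and in both directions. In normoxia HIST2H2AC (1.31 ± 0.29, adjusted p = 0.000291), HIST1H2BO (1.19 ± 0.45, adjusted p = 0.0293), HIST1H2AC (1.04 ± 0.21, adjusted p = 0.000121) and HIST1H3B (0.94 ± 0.39, adjusted p = 0.0433) were highest in MIR210HG-KO relative to MIR210-KO. HIST2H4A (-0.98 ± 0.41, adjusted p = 0.0477), HIST1H2BN (-0.93 ± 0.18, adjusted p = 8.35e-05) and HIST1H2BK (-0.24 ± 0.08, adjusted p = 0.0140) were lower. The counts were 7 higher (22.6%), where 23.4% of all genes were called higher, and 3 lower (9.68%), where 25.8% were called lower, so the share called higher was near that of all genes. Without normoxia MIR210-KO 3 the total of 10 calls was 6. Without MIR210-KO 1 or 3 the calls of HIST1H2BK (adjusted p = 0.0611 and 0.0615), HIST2H4A (0.148 and 0.176), HIST1H3B (0.0898 and 0.0924) and HIST1H2BO (0.0666 and 0.0646) were lost. HIST2H4A also lost its call without any 1 of the 4 MIR210HG-KO libraries (0.0595 to 0.115), HIST1H3B without MIR210-KO 4, MIR210HG-KO 1 or MIR210HG-KO 4 (0.0721 to 0.131) and HIST1H2BO without MIR210-KO 2, MIR210HG-KO 1 or MIR210HG-KO 2 (0.0524 to 0.124). The HIST2H4A call was lost as well under DESeq2 (0.0735), RLE scaling (0.0524), no low-count filter (0.131), the replicate block (0.0515), the covariates for long and short genes (0.0519) and for RNAs without a poly(A) tail (0.0924), and without the 4 libraries that stood apart (0.105). HIST1H3B stood at 0.46 (0.314) with the covariate for long and short genes and at 0.91 (0.0516) with upper quartile scaling, and HIST1H2BO at 0.98 (0.0709) with the covariate for RNAs without a poly(A) tail.

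In hypoxia MIR210HG-KO had HIST2H2AC (1.20 ± 0.27, adjusted p = 0.000379) and HIST1H2AC (0.67 ± 0.18, adjusted p = 0.00262) above MIR210-KO. HIST2H2AA4 (-1.51 ± 0.44, adjusted p = 0.00446), HIST1H1C (-0.72 ± 0.08, adjusted p = 1.04e-08), HIST1H2BN (-0.49 ± 0.16, adjusted p = 0.00789) and HIST2H2BE (-0.37 ± 0.13, adjusted p = 0.0169) were the 4 furthest below it, and HIST1H2BK (-0.35 ± 0.08, adjusted p = 0.000501) and HIST3H2A (-0.29 ± 0.10, adjusted p = 0.0142) were lower too. Of 31 genes 2 were higher (6.45%), where 26.0% of all genes were called higher, and 6 were lower (19.4%), where 29.0% were called lower. HIST2H2AA4 reached the filter level as a group mean only in MIR210-KO. The HIST2H2AA4 call was lost without hypoxia MIR210-KO 2 (adjusted p = 0.0514) and the HIST2H2BE call without MIR210-KO 1 (0.0731), MIR210-KO 4 (0.0732) or MIR210HG-KO 4 (0.0600). With a covariate for long and short genes the calls of HIST1H2AC (0.206), HIST2H2AA4 (0.0742) and HIST2H2BE (0.0547) were lost, the last also with no low-count filter (0.0552).

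Low oxygen was accompanied by higher summed histone transcript levels in all 3 genotypes. In MIR210HG-KO the ratio of hypoxia to normoxia ran from 1.06 for the H4 sum to 1.50 for the H1 sum. It was 1.48 for genes of 1000 bases or more and 1.03 for shorter ones. For the same longer and shorter genes it was 1.63 and 1.17 in MIR210-KO and 2.11 and 1.47 in WT. By type the ratio ran from 1.06 (H4) to 2.25 (H1) in MIR210-KO and from 1.31 (H4) to 3.57 (H1) in WT. In MIR210HG-KO cells HIST1H2BE (1.90 ± 0.37, adjusted p = 6.87e-05), HIST1H2BN (1.11 ± 0.18, adjusted p = 3.77e-06), HIST2H2BF (1.01 ± 0.37, adjusted p = 0.0221) and HIST1H2BD (0.98 ± 0.16, adjusted p = 3.55e-06) rose most, and HIST1H2BK fell (-0.21 ± 0.08, adjusted p = 0.0286). In MIR210-KO cells the largest called changes were those of HIST1H2BE (1.99 ± 0.35, adjusted p = 1.23e-05), HIST1H2AG (1.67 ± 0.17, adjusted p = 9.29e-10), HIST2H2BF (1.60 ± 0.37, adjusted p = 0.000380) and HIST2H2BE (1.56 ± 0.15, adjusted p = 1.05e-10). In WT cells HIST1H2BE (2.59 ± 0.49, adjusted p = 3.09e-05), HIST2H4A (2.43 ± 0.52, adjusted p = 0.000155), HIST3H2BB (2.05 ± 0.17, adjusted p = 4.59e-12) and HIST1H1C (2.04 ± 0.10, adjusted p = 2.03e-17) rose most, and HIST3H3 fell (-2.40 ± 0.69, adjusted p = 0.00313).

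In MIR210HG-KO 11 of 31 rose (35.5%), where 25.7% of all genes were called higher in hypoxia, and 1 fell (3.23%), where 28.3% were called lower. In MIR210-KO 14 rose (45.2%), where 29.3% of all genes were called higher, and none fell (0 at an unadjusted p under 0.05 by edgeR, 0 called by DESeq2), where 29.5% were called lower. In WT 15 rose (48.4%), where 29.6% of all genes were called higher, and 1 fell (3.23%), where 30.7% were called lower. The medians were 0.37 in MIR210HG-KO, 0.64 in MIR210-KO and 0.58 in WT, and over all genes 0.03, 0.04 and 0.00. Upper quartile scaling moved the median of all genes by 0.14 in MIR210HG-KO and by 0.14 in MIR210-KO, and with it the share of higher among called genes was 63.0% and 64.1%, against 47.6% and 49.8% with TMM. Under that scaling HIST1H2BK in MIR210HG-KO stood at -0.08 (adjusted p = 0.421), and its call was also lost without normoxia MIR210HG-KO 1 (0.145) or hypoxia MIR210HG-KO 2, 3 or 4 (0.0635 to 0.0778), under DESeq2 (0.0743) and RLE scaling (0.0570), and with the covariates for long and short genes (0.111) and for RNAs without a poly(A) tail (0.0508).

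The genes with a longer summed exon length held most of the oxygen calls. Among the 14 tested genes of 1000 bases or more, 9 rose in MIR210HG-KO, 10 in MIR210-KO and 10 in WT. Among the 17 shorter ones, 2 rose in MIR210HG-KO, 4 in MIR210-KO and 5 in WT. Of all genes tested, 25.7% were called higher in MIR210HG-KO, 29.3% in MIR210-KO and 29.6% in WT, so the shorter genes were near or below those shares. Between MIR210HG-KO and WT in normoxia, 10 of the 14 longer and 8 of the 17 shorter genes rose, where 15.6% of all genes were called higher. The difference between the length classes was not tested. HIST2H2BF exons overlap FCGR1A on the opposite strand, and 26.9% of its 50-base windows also occur elsewhere, so its reads are uncertain. The HIST2H2BF call in MIR210HG-KO was lost without normoxia MIR210HG-KO 1 (adjusted p = 0.0604), 2 (0.0507) or 4 (0.0622) or hypoxia MIR210HG-KO 1 (0.103). With the level of RNAs without a poly(A) tail as a covariate it stood at 0.24 (0.758), HIST2H2BF in MIR210-KO at 0.98 (0.0846) and HIST3H3 in WT at -1.66 (0.171). That level itself differed between hypoxia and normoxia, so these values cannot separate its part from that of oxygen.

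**Figure D2:**
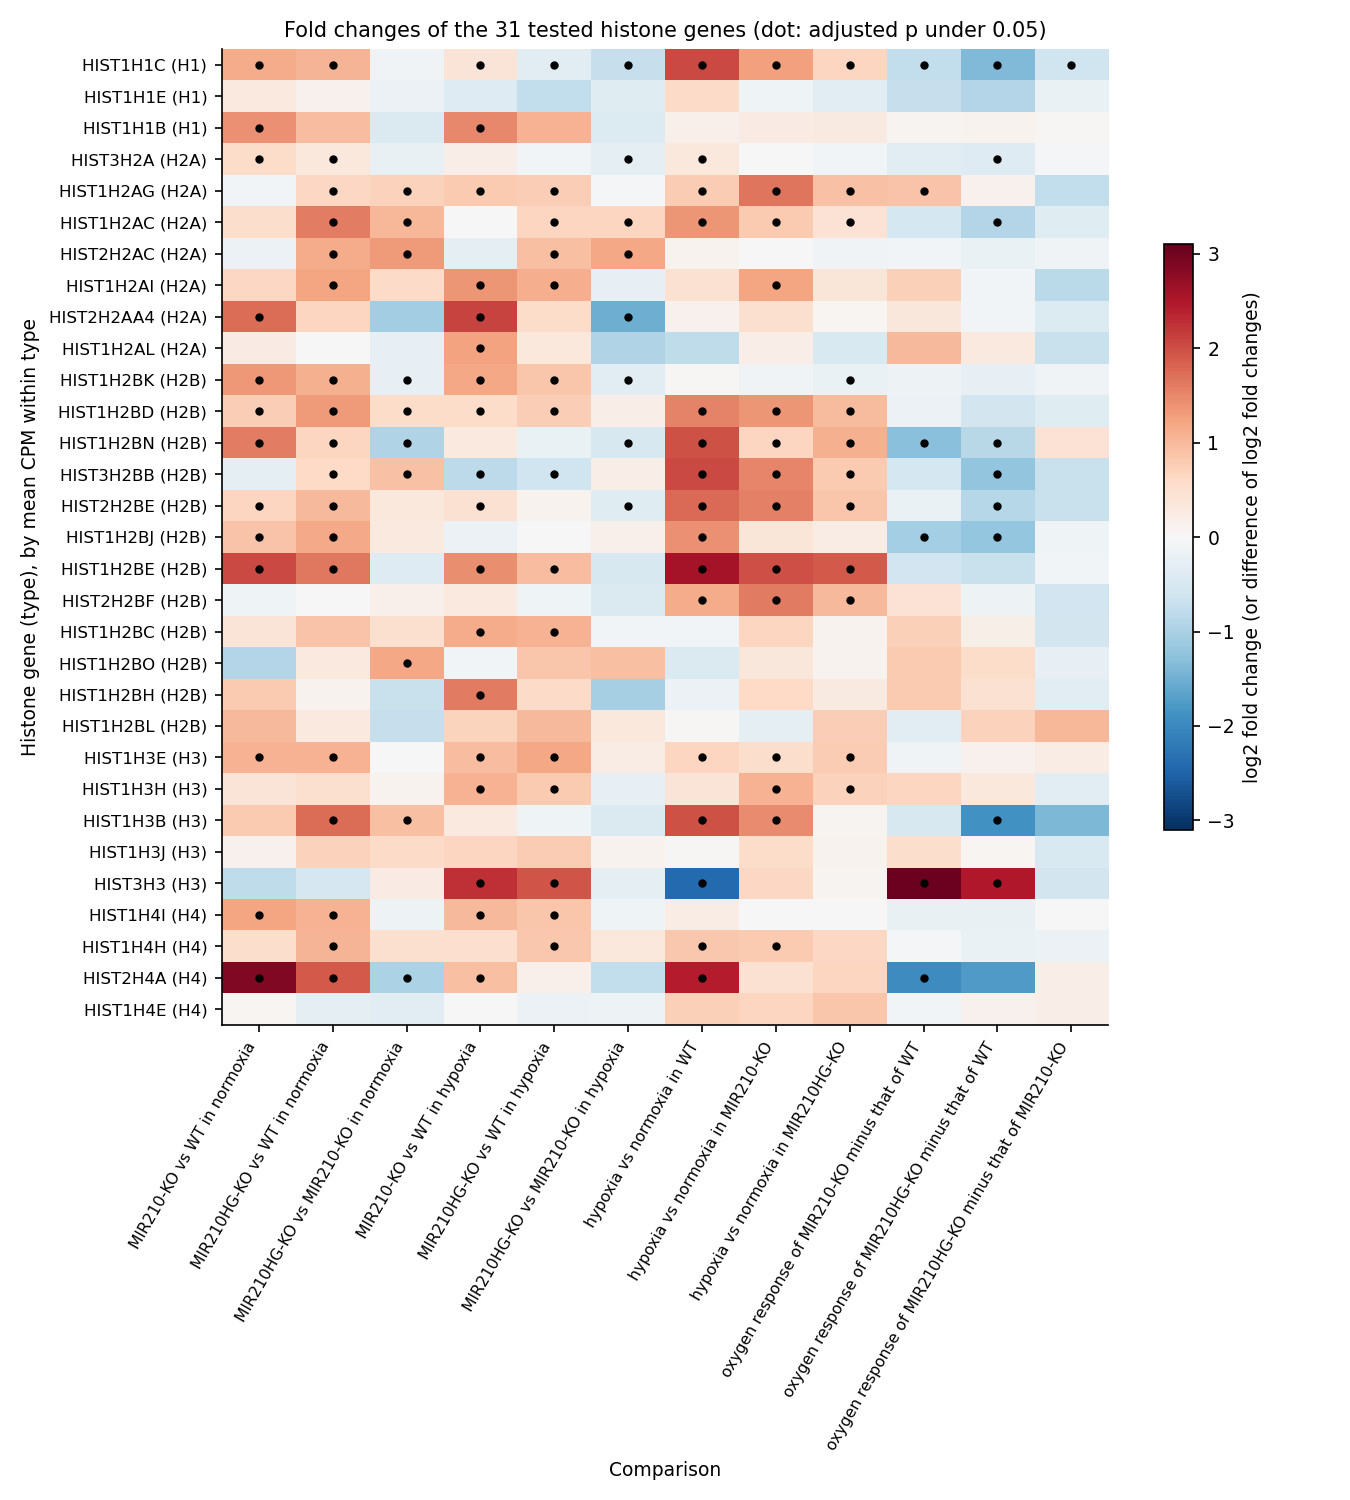
Log2 fold change (colour) of the 31 tested histone genes (rows, grouped by type) in the 12 comparisons (columns), red for higher and blue for lower, with a dot where the adjusted p was under 0.05. Against WT in normoxia 18 genes are called higher in MIR210HG-KO and 13 in MIR210-KO with none lower, and HIST1H1C is called in 11 of the 12 comparisons.

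The oxygen response itself differed between genotypes at a few histone genes, tested as an interaction. HIST1H1C responded less in MIR210HG-KO than in MIR210-KO (-0.62 ± 0.13, adjusted p = 0.00437). It was the 1 histone gene called in that comparison (3.23% lower, none higher), where 1.51% of all genes were called lower and 2.03% higher. At an unadjusted p under 0.05 edgeR gave 6 lower and 0 higher, and DESeq2 called 2 lower and 0 higher. Leaving out normoxia MIR210-KO 3 gave 3 calls, and leaving out normoxia MIR210-KO 4, normoxia MIR210HG-KO 3, hypoxia MIR210-KO 2 or hypoxia MIR210-KO 3 gave 2.

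Against the response of WT, that of MIR210HG-KO was smaller for HIST1H3B (-1.89 ± 0.53, adjusted p = 0.00972), HIST1H1C (-1.38 ± 0.14, adjusted p = 9.21e-09), HIST3H2BB (-1.23 ± 0.24, adjusted p = 0.000298) and HIST1H2BJ (-1.19 ± 0.24, adjusted p = 0.000532). It was higher for HIST3H3 (2.48 ± 0.92, adjusted p = 0.0490). In number 8 of 31 were lower (25.8%), where 12.2% of all genes were called lower, and 1 was higher (3.23%), where 10.2% were called higher. The HIST3H3 call was lost when any of 12 single libraries was left out, with adjusted p-values of 0.0514 to 0.146, and also under DESeq2 (0.0547), with no low-count filter (0.0666), with the replicate block (0.0652), with a covariate for long and short genes (0.0537) or without the 4 libraries that stood apart (0.177). The total count was 6 without normoxia WT 1. With upper quartile scaling 55.8% of called genes were higher over all genes, against 45.6% with TMM.

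For MIR210-KO against WT the responses of HIST2H4A (-1.96 ± 0.64, adjusted p = 0.0217), HIST1H2BN (-1.30 ± 0.25, adjusted p = 0.000191), HIST1H2BJ (-1.05 ± 0.25, adjusted p = 0.00168) and HIST1H1C (-0.76 ± 0.13, adjusted p = 7.36e-05) were smaller. Those of HIST3H3 (3.04 ± 0.91, adjusted p = 0.0121) and HIST1H2AG (0.89 ± 0.25, adjusted p = 0.00734) were higher. These 4 lower (12.9%) and 2 higher (6.45%) genes of 31 stand beside 14.0% and 12.5% of all genes called lower and higher. The HIST2H4A call was lost without normoxia WT 4 (adjusted p = 0.0662), normoxia MIR210-KO 3 (0.0554) or hypoxia WT 1 (0.0667). Without the 4 libraries that stood apart the calls of HIST2H4A (0.125) and HIST1H2AG (0.0501) were lost, and 4 genes were called. The WT libraries are shared by both knockouts' comparisons.

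Among the linker histones, HIST1H1C, the gene of H1.2 (chr6:26055787-26056428, minus strand), had 10.6, 10.7, 10.2 and 10.5 CPM in hypoxia MIR210HG-KO, 20.3, 14.9, 17.6 and 16.5 in hypoxia MIR210-KO, and 13.3, 13.2, 13.8 and 12.1 in hypoxia WT. In normoxia it had 6.44, 6.76, 6.79 and 6.51 CPM in normoxia MIR210HG-KO, 7.42, 6.26, 7.93 and 6.87 in normoxia MIR210-KO, and 2.97, 3.45, 3.17 and 3.19 in normoxia WT. In hypoxia no genotypes overlapped, with MIR210-KO highest and MIR210HG-KO lowest; in normoxia both knockouts overlapped each other and lay above WT. Every genotype was higher in hypoxia than in normoxia, with log2 changes of 0.66 ± 0.09, adjusted p = 3.30e-07 in MIR210HG-KO, 1.28 ± 0.09, adjusted p = 2.10e-13 in MIR210-KO and 2.04 ± 0.10, adjusted p = 2.03e-17 in WT. In normoxia it stood 1.05 ± 0.11, adjusted p = 1.70e-09 above WT in MIR210HG-KO and 1.16 ± 0.11, adjusted p = 9.81e-11 in MIR210-KO on the log2 scale. In hypoxia MIR210-KO was still above WT (0.40 ± 0.08, adjusted p = 0.000113) while MIR210HG-KO was below it.

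HIST1H1E, the gene of H1.4, was far scarcer. It had 0.387, 0.979, 0.161 and 0.605 CPM in hypoxia MIR210HG-KO, 0.741, 0.648, 0.831 and 0.472 in hypoxia MIR210-KO, and 0.990, 0.676, 1.29 and 0.593 in hypoxia WT. At 21% oxygen it had 0.694, 0.653, 0.746 and 0.492 CPM in normoxia MIR210HG-KO, 0.812, 0.404, 0.501 and 1.20 in normoxia MIR210-KO, and 0.539, 0.562, 0.812 and 0.445 in normoxia WT. All 6 groups overlapped, and no comparison called it. HIST1H1B, the third tested H1 gene, averaged 0.289 ± 0.0343 CPM in hypoxia MIR210HG-KO, 0.393 ± 0.135 in hypoxia MIR210-KO and 0.136 ± 0.0124 in hypoxia WT (SD, n = 4 each). At 21% oxygen it averaged 0.238 ± 0.162 CPM in normoxia MIR210HG-KO, 0.328 ± 0.103 in normoxia MIR210-KO and 0.124 ± 0.0646 in normoxia WT, from 13 to 34 counts per group, and in normoxia it was called higher in MIR210-KO than in WT (1.41 ± 0.54, adjusted p = 0.0346), as it was in hypoxia. HIST1H1B reached the filter level as a group mean only in hypoxia MIR210-KO.

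Of the H2A genes, HIST3H2A (chr1:228456979-228457873, minus strand) was the most abundant per kilobase. It had 15.8, 18.5, 15.0 and 15.0 CPM in hypoxia MIR210HG-KO, 22.0, 17.2, 18.1 and 21.0 in hypoxia MIR210-KO, and 17.9, 14.2, 20.4 and 15.1 in hypoxia WT. Its normoxia libraries had 17.5, 17.1, 15.8 and 17.6 CPM in normoxia MIR210HG-KO, 17.0, 19.5, 21.1 and 22.0 in normoxia MIR210-KO, and 13.5, 12.9, 14.4 and 12.9 in normoxia WT. WT lay below both knockouts in normoxia, and all 3 genotypes overlapped in hypoxia. The log2 differences from WT in normoxia were small, 0.34 ± 0.10, adjusted p = 0.0108 in MIR210HG-KO and 0.56 ± 0.10, adjusted p = 3.20e-05 in MIR210-KO. It rose in hypoxia in WT (0.33 ± 0.10, adjusted p = 0.00612), where the response of MIR210HG-KO was smaller by the interaction test (-0.41 ± 0.14, adjusted p = 0.0369).

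HIST2H2AC (chr1:149886975-149887364, plus strand) set MIR210HG-KO apart. It had 1.85, 1.40, 1.48 and 2.24 CPM in hypoxia MIR210HG-KO, 0.598, 1.12, 0.665 and 0.598 in hypoxia MIR210-KO, and 0.900, 0.651, 1.15 and 0.943 in hypoxia WT. In normoxia it had 1.50, 2.69, 1.79 and 1.47 CPM in normoxia MIR210HG-KO, 0.636, 0.646, 1.17 and 0.559 in normoxia MIR210-KO, and 1.08, 1.08, 0.696 and 0.519 in normoxia WT. At both oxygen levels every MIR210HG-KO library was above every library of the other genotypes, which overlapped each other. MIR210HG-KO exceeded WT by 0.93 ± 0.27, adjusted p = 0.00359 in hypoxia and by 1.14 ± 0.28, adjusted p = 0.00177 in normoxia on the log2 scale. No oxygen comparison called it, and 30.5% of its 50-base windows also occur elsewhere, mostly in HIST2H2AA3.

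HIST1H2AG and HIST1H2AC carry long annotated tails, and in each genotype their means were higher in hypoxia than in normoxia. HIST1H2AG averaged 5.56 ± 0.884 CPM in hypoxia MIR210HG-KO, 5.77 ± 1.03 in hypoxia MIR210-KO and 3.27 ± 0.566 in hypoxia WT (SD, n = 4 each). The normoxia means were 2.98 ± 0.368 CPM in normoxia MIR210HG-KO, 1.82 ± 0.418 in normoxia MIR210-KO and 1.92 ± 0.314 in normoxia WT. Its oxygen response was 0.90 ± 0.16, adjusted p = 1.86e-05 in MIR210HG-KO and 0.78 ± 0.18, adjusted p = 0.000319 in WT, beside the larger one in MIR210-KO. HIST1H2AC averaged 3.53 ± 0.482 CPM in hypoxia MIR210HG-KO, 2.21 ± 0.289 in hypoxia MIR210-KO and 2.20 ± 0.569 in hypoxia WT. Its normoxia groups averaged 2.59 ± 0.193 CPM in normoxia MIR210HG-KO, 1.26 ± 0.364 in normoxia MIR210-KO and 0.861 ± 0.241 in normoxia WT. MIR210HG-KO was highest at both oxygen levels, without overlap with the other genotypes, and its response to oxygen was smaller than that of WT (-0.92 ± 0.29, adjusted p = 0.0209).

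The H2B gene HIST1H2BK (chr6:27146418-27146798, minus strand) held 22321 counts over the 24 libraries, the largest of the 70. It had 34.8, 30.4, 31.1 and 30.8 CPM in hypoxia MIR210HG-KO, 43.7, 37.5, 40.2 and 40.6 in hypoxia MIR210-KO, and 19.6, 17.1, 19.9 and 14.0 in hypoxia WT. At 21% oxygen it had 41.4, 35.4, 35.5 and 35.3 CPM in normoxia MIR210HG-KO, 46.2, 40.6, 46.9 and 40.9 in normoxia MIR210-KO, and 17.0, 17.5, 16.1 and 18.0 in normoxia WT. WT was lowest at both oxygen levels, below every knockout library; the knockouts overlapped only in normoxia. Against WT it was higher in MIR210HG-KO (0.85 ± 0.08, adjusted p = 4.26e-10 in hypoxia and 1.11 ± 0.09, adjusted p = 6.13e-12 in normoxia). In MIR210-KO it was higher than in WT by 1.20 ± 0.08, adjusted p = 1.01e-13 in hypoxia and 1.35 ± 0.09, adjusted p = 2.26e-14 in normoxia. Oxygen moved it little, at 0.04 ± 0.09, adjusted p = 0.708 in WT and -0.11 ± 0.08, adjusted p = 0.255 in MIR210-KO. Of its 50-base windows 74.1% also occur in another gene, mostly H2BFS, which itself had 0.0269 to 0.0663 CPM as a group mean.

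HIST1H2BD (chr6:26158146-26171349, plus strand), by contrast, differed by oxygen as much as by genotype. It had 7.18, 6.85, 6.26 and 7.08 CPM in hypoxia MIR210HG-KO, 5.55, 6.15, 5.32 and 6.86 in hypoxia MIR210-KO, and 4.11, 3.68, 4.33 and 3.91 in hypoxia WT. Its normoxia libraries had 2.82, 4.11, 4.06 and 2.83 CPM in normoxia MIR210HG-KO, 1.80, 2.26, 2.96 and 2.32 in normoxia MIR210-KO, and 0.775, 1.36, 1.47 and 1.93 in normoxia WT. Each genotype was higher in hypoxia without overlap, by 1.36 ± 0.17, adjusted p = 2.92e-08 in MIR210-KO and 1.54 ± 0.18, adjusted p = 1.23e-08 in WT on the log2 scale, besides MIR210HG-KO above. In hypoxia WT lay below both knockouts, which overlapped, and in normoxia MIR210HG-KO lay above WT while MIR210-KO overlapped both. The differences from WT were 0.77 ± 0.15, adjusted p = 6.04e-05 in hypoxia MIR210HG-KO and 1.33 ± 0.19, adjusted p = 1.38e-06 in normoxia MIR210HG-KO. For MIR210-KO they were 0.58 ± 0.15, adjusted p = 0.00163 in hypoxia and 0.76 ± 0.20, adjusted p = 0.00262 in normoxia.

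HIST3H2BB was the abundant H2B gene that fell in both knockouts in hypoxia. It averaged 4.56 ± 0.325 CPM in hypoxia MIR210HG-KO, 3.94 ± 0.498 in hypoxia MIR210-KO and 6.96 ± 1.02 in hypoxia WT (SD, n = 4 each). In normoxia it averaged 2.58 ± 0.411 CPM in normoxia MIR210HG-KO, 1.38 ± 0.476 in normoxia MIR210-KO and 1.67 ± 0.343 in normoxia WT. In normoxia MIR210HG-KO was above WT (0.63 ± 0.19, adjusted p = 0.00937), and the WT increase with hypoxia exceeded that of MIR210HG-KO. HIST1H2BJ averaged 4.04 ± 0.675 CPM in hypoxia MIR210HG-KO, 3.65 ± 0.770 in hypoxia MIR210-KO and 4.11 ± 0.567 in hypoxia WT. At 21% oxygen it averaged 3.46 ± 0.675 CPM in normoxia MIR210HG-KO, 2.82 ± 0.533 in normoxia MIR210-KO and 1.53 ± 0.104 in normoxia WT. It was above WT in both knockouts in normoxia (1.18 ± 0.19, adjusted p = 6.74e-06 in MIR210HG-KO and 0.88 ± 0.19, adjusted p = 0.000305 in MIR210-KO), and in hypoxia the 3 genotypes overlapped. HIST1H2BE, the gene with the largest oxygen change in each genotype, had few counts: its group means were 1.24 ± 0.195 CPM in hypoxia MIR210HG-KO, 1.73 ± 0.359 in hypoxia MIR210-KO and 0.635 ± 0.271 in hypoxia WT. In normoxia they were 0.325 ± 0.208 CPM in normoxia MIR210HG-KO, 0.441 ± 0.172 in normoxia MIR210-KO and 0.106 ± 0.0714 in normoxia WT, from 11 counts in normoxia WT to 44 in normoxia MIR210-KO. HIST1H2BE exons overlap AL353759.1 on the opposite strand, and 30.5% of its 50-base windows also occur in another gene. Strand use is not given, so reads of HIST1H2BE and AL353759.1 may not be told apart.

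HIST1H2BN and HIST2H2BE each rose with hypoxia in every genotype. HIST1H2BN averaged 4.17 ± 0.513 CPM in hypoxia MIR210HG-KO, 5.87 ± 0.589 in hypoxia MIR210-KO and 4.80 ± 0.441 in hypoxia WT (SD, n = 4 each). The normoxia means were 1.94 ± 0.547 CPM in normoxia MIR210HG-KO, 3.70 ± 0.471 in normoxia MIR210-KO and 1.21 ± 0.424 in normoxia WT. Its exons overlap HIST1H2AL on the same strand and HIST1H2AK on the opposite strand, and strand use is not given in the sources used here, so reads of these genes may not be told apart. HIST2H2BE averaged 4.52 ± 0.325 CPM in hypoxia MIR210HG-KO, 5.84 ± 0.709 in hypoxia MIR210-KO and 4.21 ± 0.346 in hypoxia WT. Its normoxia groups averaged 2.48 ± 0.457 CPM in normoxia MIR210HG-KO, 1.98 ± 0.406 in normoxia MIR210-KO and 1.24 ± 0.104 in normoxia WT, and its response was smaller in MIR210HG-KO than in WT (-0.89 ± 0.22, adjusted p = 0.00277).

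Among the H3 genes, HIST1H3H (chr6:27810064-27811300, plus strand) had 3.54, 2.69, 3.33 and 2.13 CPM in hypoxia MIR210HG-KO, 4.07, 3.16, 3.09 and 3.62 in hypoxia MIR210-KO, and 1.53, 1.43, 1.70 and 1.99 in hypoxia WT. In normoxia it had 1.70, 1.61, 1.98 and 1.84 CPM in normoxia MIR210HG-KO, 1.73, 1.86, 1.59 and 1.44 in normoxia MIR210-KO, and 1.62, 1.00, 1.39 and 1.00 in normoxia WT. In hypoxia WT lay below both knockouts, and in normoxia all 3 genotypes overlapped. The hypoxia differences from WT were 0.82 ± 0.17, adjusted p = 0.000145 in MIR210HG-KO and 1.07 ± 0.17, adjusted p = 2.67e-06 in MIR210-KO. It rose with hypoxia in MIR210HG-KO (0.72 ± 0.18, adjusted p = 0.000909) and MIR210-KO (1.07 ± 0.18, adjusted p = 4.83e-06), whereas the WT value was 0.40 ± 0.19, adjusted p = 0.0755; neither knockout's response was called different from that of WT.

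HIST1H3B (chr6:26031650-26032060, minus strand) was low throughout. It had 0.718, 0.804, 0.698 and 0.996 CPM in hypoxia MIR210HG-KO, 0.997, 0.856, 0.798 and 1.73 in hypoxia MIR210-KO, and 0.630, 1.25, 0.521 and 1.10 in hypoxia WT. At 21% oxygen it had 1.00, 0.576, 0.671 and 0.778 CPM in normoxia MIR210HG-KO, 0.353, 0.606, 0.334 and 0.280 in normoxia MIR210-KO, and 0.270, 0.321, 0.0387 and 0.259 in normoxia WT. The genotypes overlapped in hypoxia, and in normoxia MIR210HG-KO lay above WT while MIR210-KO overlapped both. Its oxygen response was 0.08 ± 0.34, adjusted p = 0.866 in MIR210HG-KO, 1.47 ± 0.36, adjusted p = 0.000888 in MIR210-KO and 1.96 ± 0.40, adjusted p = 8.40e-05 in WT. HIST1H3E averaged 4.87 ± 1.06 CPM in hypoxia MIR210HG-KO, 4.12 ± 0.670 in hypoxia MIR210-KO and 2.13 ± 0.297 in hypoxia WT (SD, n = 4 each). In normoxia HIST1H3E averaged 2.82 ± 0.440 CPM in normoxia MIR210HG-KO, 2.82 ± 0.324 in normoxia MIR210-KO and 1.34 ± 0.280 in normoxia WT, with WT below both knockouts at each oxygen level. HIST3H3 had 8 counts over the 4 hypoxia WT libraries and 18 to 37 in each other group, so its folds rest on few reads.

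Among the H4 genes, HIST1H4I (chr6:27138588-27139881, plus strand) had 13.1, 13.2, 13.7 and 11.1 CPM in hypoxia MIR210HG-KO, 14.2, 13.5, 14.8 and 14.2 in hypoxia MIR210-KO, and 8.31, 6.23, 7.87 and 5.98 in hypoxia WT. Its normoxia libraries had 12.7, 11.3, 15.2 and 11.3 CPM in normoxia MIR210HG-KO, 13.0, 14.3, 15.7 and 13.5 in normoxia MIR210-KO, and 6.64, 6.06, 5.88 and 5.41 in normoxia WT. WT lay below both knockouts at both oxygen levels, and the knockouts overlapped each other. The differences from WT were 0.85 ± 0.11, adjusted p = 3.41e-08 in hypoxia and 1.07 ± 0.11, adjusted p = 3.10e-09 in normoxia for MIR210HG-KO. For MIR210-KO they were 1.00 ± 0.10, adjusted p = 1.00e-09 in hypoxia and 1.23 ± 0.11, adjusted p = 7.21e-11 in normoxia, and no oxygen comparison called it. RefSeq places HIST1H4I within the span of the HIST1H2BK gene on the opposite strand (chr6:27138293-27146858). In the coordinates used for counting, the genes of this pair lie apart and share no exon overlap. Whether reads of a longer HIST1H2BK transcript were counted for HIST1H4I was not tested.

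HIST1H4D (chr6:26188765-26189076, minus strand), second among H4 genes per kilobase, had 106 counts over all libraries and was not tested. It had 0.276, 0.0350, 0.161 and 0.107 CPM in hypoxia MIR210HG-KO, 0.114, 0.207, 0.166 and 0.377 in hypoxia MIR210-KO, and 0.120, 0.200, 0.0548 and 0.108 in hypoxia WT. In normoxia it had 0.231, 0.0768, 0.186 and 0 CPM in normoxia MIR210HG-KO, 0, 0.242, 0.0418 and 0.0799 in normoxia MIR210-KO, and 0.169, 0, 0.232 and 0.222 in normoxia WT. All groups overlapped. HIST2H4A, whose reads are shared with a near-identical copy, averaged 0.463 ± 0.0768 CPM in hypoxia MIR210HG-KO, 0.796 ± 0.118 in hypoxia MIR210-KO and 0.424 ± 0.206 in hypoxia WT (SD, n = 4 each). In normoxia it averaged 0.291 ± 0.0511 CPM in normoxia MIR210HG-KO, 0.575 ± 0.258 in normoxia MIR210-KO and 0.0760 ± 0.0561 in normoxia WT, with 8 counts over the 4 WT libraries.

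**Figure D3:**
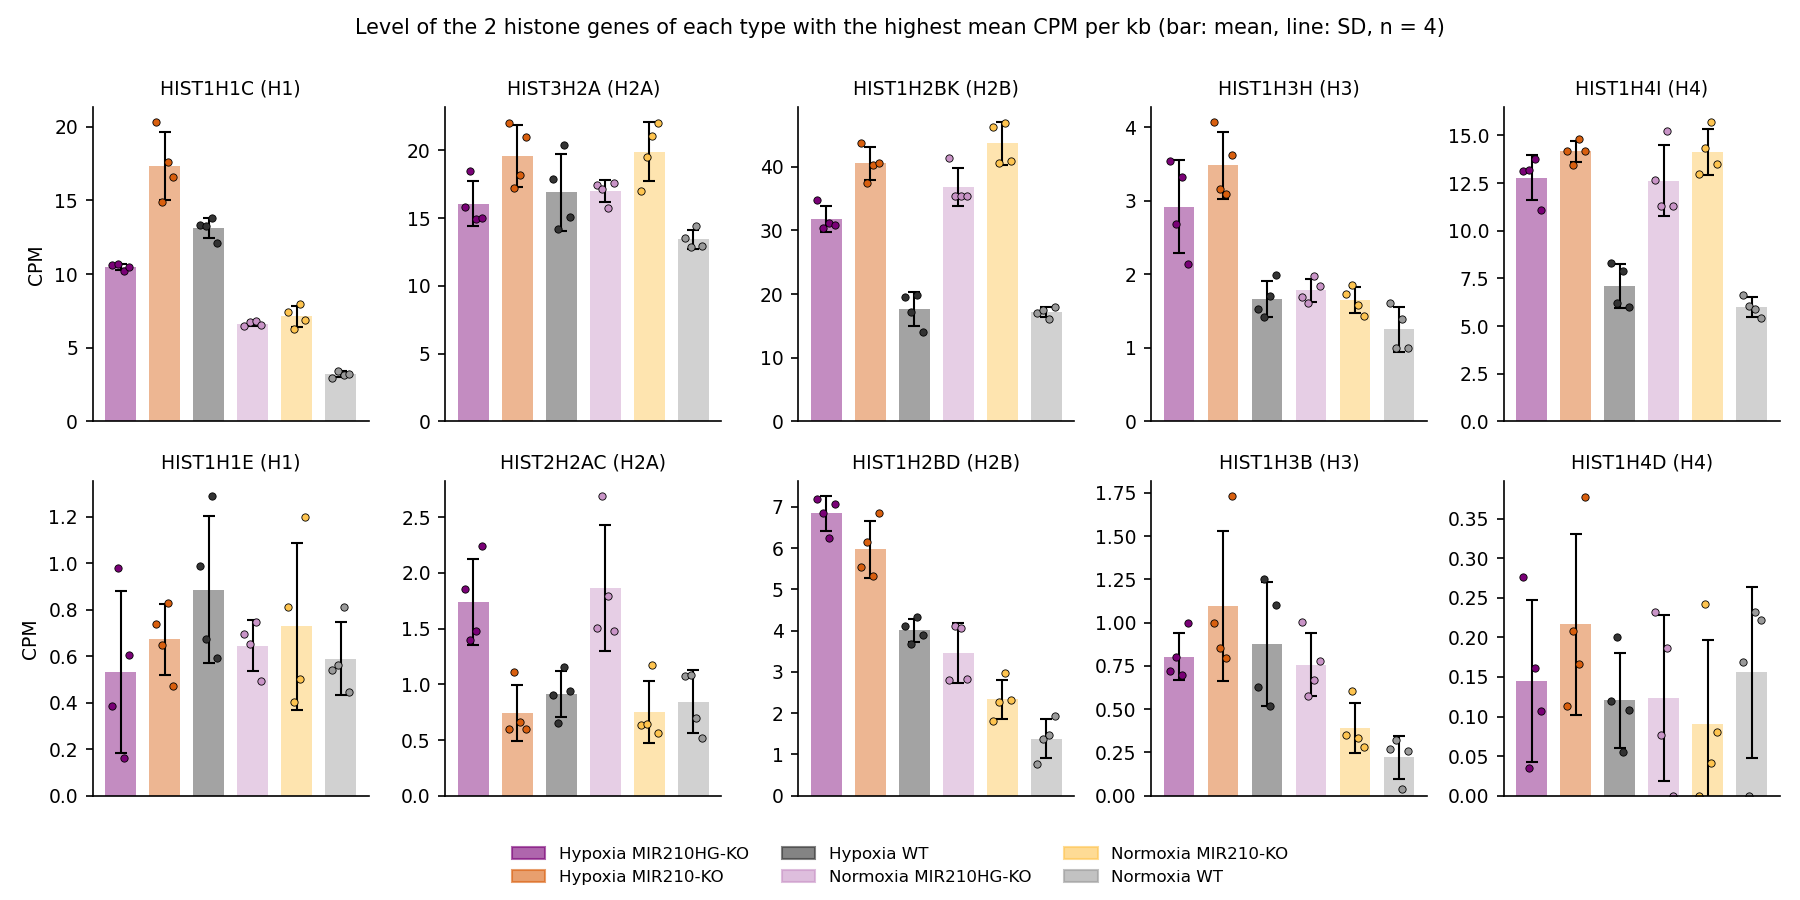
Level in each library (CPM on the y axis; points are libraries, bars group means, error bars the SD of 4 libraries) of the 2 genes of each type with the highest mean CPM per kilobase, 6 groups along the x axis. HIST1H2BK and HIST1H4I separate both knockouts from WT at each oxygen level, HIST2H2AC separates MIR210HG-KO from the other genotypes, and HIST1H1C and HIST1H2BD are higher in hypoxia in each genotype.

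Histone genes often lie head to head in pairs that share the stretch between their starts, and 12 such pairs have starts within 1000 bases. Levels per kilobase within a pair were unequal. HIST1H2BK and HIST1H2AH, 331 bases apart, stood at 82.1 and 0.456 CPM per kilobase, a ratio of 180. HIST3H2A and HIST3H2BB, 234 bases apart, had 19.2 and 1.49, a ratio of 12.9. HIST1H2BJ and HIST1H2AG, 292 bases apart, had 3.44 and 1.58, and HIST2H2BE and HIST2H2AC, 323 bases apart, had 1.54 and 2.93. These values depend on the annotated lengths. By CPM alone HIST3H2A and HIST3H2BB had 17.2 and 3.52. The order turned round for HIST1H2BJ (950 bases) and HIST1H2AG (2250 bases), at 3.27 and 3.55 CPM. It also turned round for HIST2H2BE (2194 bases) and HIST2H2AC (390 bases), at 3.38 and 1.14 CPM. In this last pair HIST2H2BE rose with hypoxia in all 3 genotypes, while the oxygen values of HIST2H2AC were -0.10 in MIR210HG-KO, 0.01 in MIR210-KO and 0.10 in WT and were not called.

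Of 20 other protein-coding genes inside the HIST1 cluster 13 were tested. Against WT in normoxia 2 (15.4%) rose and 4 (30.8%) fell in MIR210HG-KO, where 15.6% and 19.6% of all genes were called higher and lower, and none rose and 8 (61.5%) fell in MIR210-KO, where 22.6% and 21.6% were. BTN3A3, a butyrophilin gene, fell in both (-0.53 ± 0.13, adjusted p = 0.00145 in MIR210HG-KO and -0.44 ± 0.13, adjusted p = 0.00573 in MIR210-KO). ZNF184, a zinc finger gene, rose in MIR210HG-KO (0.46 ± 0.08, adjusted p = 1.25e-05), and ZNF322 fell in MIR210-KO (-0.47 ± 0.08, adjusted p = 5.04e-06). In hypoxia 1 (7.69%) rose and 6 (46.2%) fell in MIR210HG-KO, beside 24.4% and 30.2% of all genes, led by POM121L2 (-1.47 ± 0.51, adjusted p = 0.0163) and BTN2A2 (-0.69 ± 0.05, adjusted p = 2.11e-12), and 2 (15.4%) rose and 7 (53.8%) fell in MIR210-KO, beside 28.2% and 27.7%, led by ZNF184 (-0.77 ± 0.07, adjusted p = 1.41e-10) and BTN2A2 (-0.75 ± 0.05, adjusted p = 1.98e-13).

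With hypoxia 7 (53.8%) rose and 2 (15.4%) fell of these 13 in MIR210HG-KO, where 25.7% and 28.3% of all genes were called higher and lower. In MIR210-KO 9 (69.2%) rose and 1 (7.69%) fell, beside 29.3% and 29.5% of all genes, and in WT 9 (69.2%) rose and 2 (15.4%) fell, beside 29.6% and 30.7%. PRSS16, which encodes a thymic serine protease, rose in each genotype (0.75 ± 0.08, adjusted p = 4.96e-09 in MIR210HG-KO, 0.79 ± 0.08, adjusted p = 9.33e-10 in MIR210-KO and 0.94 ± 0.08, adjusted p = 1.49e-11 in WT). ABT1 fell in MIR210HG-KO (-0.76 ± 0.06, adjusted p = 4.99e-12) and MIR210-KO (-0.87 ± 0.06, adjusted p = 2.94e-13), and BTN2A2 rose in WT (0.94 ± 0.05, adjusted p = 1.66e-15).

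**Figure D4:**
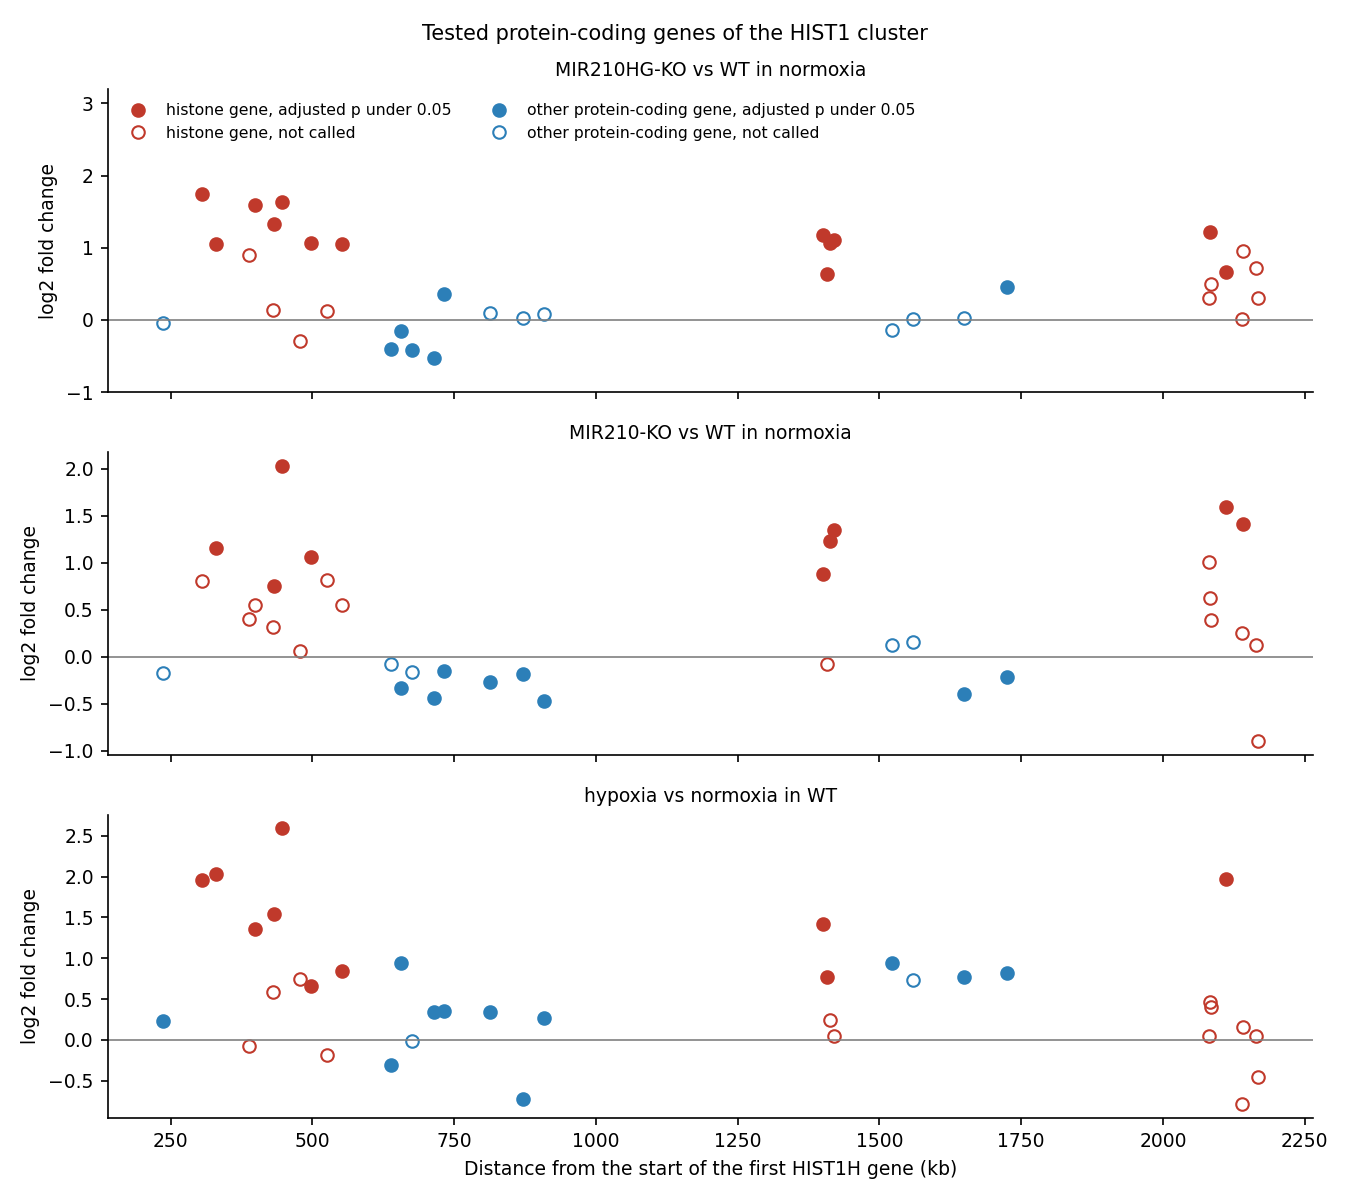
Log2 fold change of tested genes of the HIST1 cluster (y axis) against distance in kilobases along chromosome 6 from the first histone gene (x axis), histone genes in red and other protein-coding genes in blue, filled where called, for MIR210HG-KO against WT in normoxia, MIR210-KO against WT in normoxia and hypoxia against normoxia in WT. In both knockout panels the called histone genes lie above 0, while of the 13 other genes 2 and 0 are called higher.

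Genes that process histone messenger RNA did not move in 1 direction with the knockouts. SLBP itself averaged 107 ± 5.96 CPM in hypoxia MIR210HG-KO, 115 ± 6.11 in hypoxia MIR210-KO and 103 ± 11.6 in hypoxia WT (SD, n = 4 each). At 21% oxygen it averaged 126 ± 5.21 CPM in normoxia MIR210HG-KO, 129 ± 7.00 in normoxia MIR210-KO and 116 ± 3.15 in normoxia WT. It was higher in MIR210-KO than in WT in hypoxia (0.17 ± 0.06, adjusted p = 0.0227) and was not called in MIR210HG-KO against WT (0.06 ± 0.06, adjusted p = 0.469 in hypoxia and 0.12 ± 0.06, adjusted p = 0.148 in normoxia), in MIR210-KO against WT in normoxia (0.15 ± 0.06, adjusted p = 0.0585) or between the knockouts (-0.11 ± 0.06, adjusted p = 0.131 in hypoxia and -0.03 ± 0.06, adjusted p = 0.745 in normoxia). With hypoxia SLBP fell in all 3 genotypes (-0.24 ± 0.06, adjusted p = 0.00158 in MIR210HG-KO, -0.16 ± 0.06, adjusted p = 0.0319 in MIR210-KO and -0.18 ± 0.06, adjusted p = 0.0147 in WT), while the histone sum was higher in each.

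NPAT, the cyclin E-CDK2 substrate that activates histone gene transcription, went opposite ways in the knockouts. It averaged 59.6 ± 3.68 CPM in hypoxia MIR210HG-KO, 31.5 ± 3.45 in hypoxia MIR210-KO and 43.0 ± 5.13 in hypoxia WT (SD, n = 4 each). The normoxia means were 49.7 ± 2.55 CPM in normoxia MIR210HG-KO, 26.9 ± 1.81 in normoxia MIR210-KO and 37.5 ± 0.999 in normoxia WT. Against WT it rose in MIR210HG-KO (0.47 ± 0.07, adjusted p = 2.90e-06 in hypoxia and 0.41 ± 0.08, adjusted p = 7.86e-05 in normoxia) and fell in MIR210-KO (-0.45 ± 0.08, adjusted p = 7.95e-06 in hypoxia and -0.48 ± 0.08, adjusted p = 7.10e-06 in normoxia), although most histone genes called in each knockout were higher. It rose with hypoxia in MIR210HG-KO (0.26 ± 0.08, adjusted p = 0.00386), MIR210-KO (0.23 ± 0.08, adjusted p = 0.0131) and WT (0.20 ± 0.08, adjusted p = 0.0262). Neither SLBP nor NPAT was called in the interaction tests, with adjusted p-values of 0.722 and 0.862 for NPAT and 0.670 and 0.890 for SLBP in MIR210HG-KO and MIR210-KO against WT.

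The list of 36 histone mRNA processing and transcription genes, SLBP and NPAT among them, was tested in full. Against WT in normoxia 11 (30.6%) rose and 5 (13.9%) fell in MIR210HG-KO, where 15.6% and 19.6% of all genes were called higher and lower, led by PAPOLA, a poly(A) polymerase (0.53 ± 0.05, adjusted p = 1.42e-10), and CCNE2, a cyclin E (0.46 ± 0.07, adjusted p = 1.10e-05). In MIR210-KO 5 (13.9%) rose and 7 (19.4%) fell, beside 22.6% and 21.6% of all genes, led by NELFE, a subunit of the negative elongation factor (-0.74 ± 0.07, adjusted p = 4.85e-10), and CCNE1 (-0.59 ± 0.07, adjusted p = 3.08e-08). In hypoxia 11 (30.6%) rose and 9 (25%) fell in MIR210HG-KO, beside 24.4% and 30.2% of all genes, with MIF4GD, an SLBP-interacting protein (-0.90 ± 0.09, adjusted p = 5.86e-10), and PAPOLA (0.68 ± 0.05, adjusted p = 1.60e-13) furthest from WT, and 7 (19.4%) rose and 14 (38.9%) fell in MIR210-KO, beside 28.2% and 27.7%, with NELFE (-0.87 ± 0.07, adjusted p = 8.67e-12) and ZNF473, a U7-associated zinc finger protein (-0.75 ± 0.06, adjusted p = 1.02e-11).

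With hypoxia most of these 36 genes fell. In MIR210HG-KO 5 (13.9%) rose and 24 (66.7%) fell, where 25.7% and 28.3% of all genes were called higher and lower, in MIR210-KO 5 (13.9%) rose and 24 (66.7%) fell, beside 29.3% and 29.5%, and in WT 5 (13.9%) rose and 21 (58.3%) fell, beside 29.6% and 30.7%. The list medians were -0.29 in MIR210HG-KO, -0.32 in MIR210-KO and -0.26 in WT, beside 0.03, 0.04 and 0.00 over all genes. LSM10, a U7 subunit, fell in MIR210HG-KO (-1.17 ± 0.09, adjusted p = 4.26e-12) and MIR210-KO (-1.46 ± 0.09, adjusted p = 3.06e-14), and CCNE1 fell in WT (-0.96 ± 0.07, adjusted p = 4.17e-13). SNRPB, an Sm protein, fell in MIR210HG-KO (-0.94 ± 0.08, adjusted p = 1.26e-11) and SRRT, a cap-binding partner, in MIR210-KO (-0.93 ± 0.06, adjusted p = 1.53e-14). FIP1L1, a polyadenylation factor, rose in WT (1.11 ± 0.08, adjusted p = 2.71e-13), and its response was smaller in MIR210HG-KO (-0.89 ± 0.11, adjusted p = 8.52e-07) and MIR210-KO (-0.96 ± 0.11, adjusted p = 1.13e-07). Between the knockouts 14 (38.9%) were higher and 4 (11.1%) lower in MIR210HG-KO at each oxygen level, beside 26.0% and 29.0% of all genes in hypoxia and 23.4% and 25.8% in normoxia, with MIF4GD (-0.96 ± 0.09, adjusted p = 1.05e-10 in hypoxia and -0.99 ± 0.09, adjusted p = 6.36e-11 in normoxia) and NPAT (0.92 ± 0.08, adjusted p = 5.67e-12 in hypoxia and 0.89 ± 0.08, adjusted p = 3.04e-11 in normoxia) furthest apart. Interaction tests called 1 (2.78%) higher and 5 (13.9%) lower in MIR210HG-KO against WT, beside 10.2% and 12.2% of all genes, 4 (11.1%) higher and 8 (22.2%) lower in MIR210-KO against WT, beside 12.5% and 14.0%, and none between the knockouts.

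S-phase genes, whose proteins copy DNA at the time histones are made, moved in both directions in MIR210HG-KO and mostly downward in MIR210-KO. Of 48 tested, 11 (22.9%) rose and 6 (12.5%) fell in MIR210HG-KO against WT in normoxia, where 15.6% and 19.6% of all genes were called higher and lower, and 1 (2.08%) rose and 26 (54.2%) fell in MIR210-KO, beside 22.6% and 21.6%. In hypoxia 15 (31.2%) rose and 13 (27.1%) fell in MIR210HG-KO, beside 24.4% and 30.2% of all genes, and 6 (12.5%) rose and 25 (52.1%) fell in MIR210-KO, beside 28.2% and 27.7%. POLA2, a DNA polymerase alpha subunit, fell in MIR210-KO (-1.23 ± 0.08, adjusted p = 3.83e-14 in hypoxia and -0.86 ± 0.08, adjusted p = 4.08e-10 in normoxia), as did CDC6 in hypoxia (-0.86 ± 0.05, adjusted p = 8.84e-16) and GINS1 in normoxia (-0.66 ± 0.05, adjusted p = 8.82e-13). In MIR210HG-KO against WT, MCM10 fell in normoxia (-0.53 ± 0.05, adjusted p = 5.24e-10), POLE2 rose in hypoxia (0.64 ± 0.08, adjusted p = 3.04e-08) and normoxia (0.36 ± 0.08, adjusted p = 0.000480), and CLSPN rose in hypoxia (0.67 ± 0.08, adjusted p = 4.95e-08). Relative to MIR210-KO, 26 (54.2%) were higher and 5 (10.4%) lower in MIR210HG-KO in hypoxia, beside 26.0% and 29.0% of all genes, and 31 (64.6%) higher and 5 (10.4%) lower in normoxia, beside 23.4% and 25.8%, among them E2F1 (0.71 ± 0.08, adjusted p = 2.54e-09 in hypoxia and 0.71 ± 0.08, adjusted p = 2.57e-09 in normoxia), CLSPN in hypoxia (0.69 ± 0.08, adjusted p = 2.23e-08) and RRM1 in normoxia (0.67 ± 0.04, adjusted p = 4.70e-14).

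With hypoxia 5 (10.4%) rose and 27 (56.2%) fell among S-phase genes in MIR210HG-KO, where 25.7% and 28.3% of all genes were called higher and lower. In MIR210-KO 8 (16.7%) rose and 27 (56.2%) fell, beside 29.3% and 29.5% of all genes, and in WT 12 (25%) rose and 23 (47.9%) fell, beside 29.6% and 30.7%. UHRF1, which couples histone marks to DNA methylation, fell in each (-0.96 ± 0.07, adjusted p = 2.44e-13 in MIR210HG-KO, -0.83 ± 0.07, adjusted p = 4.24e-12 in MIR210-KO and -1.37 ± 0.07, adjusted p = 2.61e-17 in WT), as did MCM5 in MIR210HG-KO (-0.75 ± 0.07, adjusted p = 3.42e-11), MCM7 in MIR210-KO (-0.70 ± 0.06, adjusted p = 2.74e-11) and POLE in WT (-0.82 ± 0.06, adjusted p = 7.85e-13). The summed level of the list was 7156 CPM in hypoxia MIR210HG-KO, 6411 in hypoxia MIR210-KO and 7075 in hypoxia WT, beside 8553, 7447 and 8412 CPM in normoxia MIR210HG-KO, MIR210-KO and WT. The part of S-phase share in the histone levels was not tested. CDC6 had a smaller oxygen value in both knockouts than in WT (-0.53 ± 0.07, adjusted p = 1.71e-06 in MIR210HG-KO and -0.80 ± 0.07, adjusted p = 4.06e-10 in MIR210-KO), and it was the 1 S-phase gene called between the knockouts' responses (0.27 ± 0.07, adjusted p = 0.0239). Against WT the responses of 6 (12.5%) were higher and 7 (14.6%) lower in MIR210HG-KO, beside 10.2% and 12.2% of all genes, and those of 11 (22.9%) higher and 7 (14.6%) lower in MIR210-KO, beside 12.5% and 14.0%, POLE in MIR210HG-KO (0.42 ± 0.09, adjusted p = 0.000692) and UHRF1 in MIR210-KO (0.54 ± 0.09, adjusted p = 5.12e-05) among the higher.

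Replacement histones, whose genes lie outside the clusters and mostly give polyadenylated transcripts, were compared as a second family, and 13 of 23 were tested. The list and its counts also held HIST4H4, an H4 gene outside the clusters that encodes no replacement form. Its group means ran from 0.728 CPM in hypoxia WT to 1.84 in hypoxia MIR210-KO. In normoxia 7 (53.8%) rose and none fell in MIR210HG-KO against WT, where 15.6% and 19.6% of all genes were called higher and lower, led by H2AFX (0.56 ± 0.08, adjusted p = 1.65e-06) and H1F0, the gene of linker histone H1.0 (0.56 ± 0.05, adjusted p = 9.27e-10), and 3 (23.1%) rose and 2 (15.4%) fell in MIR210-KO, beside 22.6% and 21.6%, led by H3F3B (0.51 ± 0.05, adjusted p = 1.94e-09) and H2AFY2 (0.49 ± 0.07, adjusted p = 4.23e-07). In hypoxia 6 (46.2%) rose and 2 (15.4%) fell in MIR210HG-KO, beside 24.4% and 30.2% of all genes, with HIST4H4 (0.93 ± 0.29, adjusted p = 0.00808) and H2AFV (0.71 ± 0.05, adjusted p = 9.26e-14) in front, and 7 (53.8%) rose and 3 (23.1%) fell in MIR210-KO, beside 28.2% and 27.7%, with HIST4H4 (1.31 ± 0.29, adjusted p = 0.000233) and CENPA, the centromeric H3 (-0.63 ± 0.07, adjusted p = 4.15e-09). With hypoxia 1 (7.69%) rose and 9 (69.2%) fell in MIR210HG-KO, beside 25.7% and 28.3% of all genes, 2 (15.4%) rose and 9 (69.2%) fell in MIR210-KO, beside 29.3% and 29.5%, and 1 (7.69%) rose and 7 (53.8%) fell in WT, beside 29.6% and 30.7%. H1F0 rose (1.32 ± 0.06, adjusted p = 9.48e-19 in MIR210HG-KO, 1.56 ± 0.06, adjusted p = 2.40e-20 in MIR210-KO and 2.11 ± 0.06, adjusted p = 6.03e-24 in WT), with a smaller response in MIR210HG-KO (-0.79 ± 0.08, adjusted p = 5.94e-09) and MIR210-KO (-0.55 ± 0.08, adjusted p = 2.37e-06) than in WT. H2AFZ, the gene of H2A.Z, fell in each genotype (-0.73 ± 0.08, adjusted p = 4.42e-09 in MIR210HG-KO, -0.81 ± 0.08, adjusted p = 5.42e-10 in MIR210-KO and -0.97 ± 0.08, adjusted p = 6.32e-12 in WT). Between the knockouts 6 (46.2%) were higher and 3 (23.1%) lower in MIR210HG-KO in hypoxia, beside 26.0% and 29.0% of all genes, and 6 (46.2%) higher and 2 (15.4%) lower in normoxia, beside 23.4% and 25.8%, with H2AFX at 0.80 ± 0.08, adjusted p = 6.42e-10 in hypoxia and 0.64 ± 0.08, adjusted p = 6.78e-08 in normoxia.

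Histone chaperones, which carry histones to DNA, numbered 29 and were all tested. In normoxia 9 (31%) rose and 3 (10.3%) fell in MIR210HG-KO against WT, where 15.6% and 19.6% of all genes were called higher and lower, with IPO4, an importin for H3 and H4 (0.60 ± 0.23, adjusted p = 0.0395), and UBN2, a HIRA complex subunit (-0.57 ± 0.10, adjusted p = 4.86e-05), furthest, and 4 (13.8%) rose and 12 (41.4%) fell in MIR210-KO, beside 22.6% and 21.6%, with UBN2 (-0.75 ± 0.11, adjusted p = 5.09e-07) and SSRP1, a FACT subunit (-0.59 ± 0.05, adjusted p = 1.00e-11). In hypoxia 11 (37.9%) rose and 7 (24.1%) fell in MIR210HG-KO, beside 24.4% and 30.2% of all genes, with CDAN1 (0.64 ± 0.07, adjusted p = 1.16e-09) and SUPT16H, the other FACT subunit (0.61 ± 0.04, adjusted p = 1.70e-13), and 5 (17.2%) rose and 13 (44.8%) fell in MIR210-KO, beside 28.2% and 27.7%, with UBN2 (-0.77 ± 0.10, adjusted p = 1.51e-07) and NAP1L4 (-0.70 ± 0.05, adjusted p = 4.18e-14). With hypoxia 5 (17.2%) rose and 17 (58.6%) fell in MIR210HG-KO, beside 25.7% and 28.3% of all genes, 6 (20.7%) rose and 17 (58.6%) fell in MIR210-KO, beside 29.3% and 29.5%, and 8 (27.6%) rose and 16 (55.2%) fell in WT, beside 29.6% and 30.7%. Called genes with the largest changes were IPO4, falling in MIR210HG-KO (-0.82 ± 0.23, adjusted p = 0.00285) and MIR210-KO (-1.07 ± 0.25, adjusted p = 0.000564) and CDAN1 (-0.74 ± 0.07, adjusted p = 3.75e-11) and ASF1B (-0.73 ± 0.07, adjusted p = 3.89e-11) in WT. Between the knockouts 18 (62.1%) were higher and 4 (13.8%) lower in MIR210HG-KO in hypoxia, beside 26.0% and 29.0% of all genes, and 17 (58.6%) higher and 4 (13.8%) lower in normoxia, beside 23.4% and 25.8%, with CDAN1 at 0.78 ± 0.07, adjusted p = 1.54e-11 in hypoxia and 0.66 ± 0.07, adjusted p = 4.74e-10 in normoxia.

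RNAs known to lack a poly(A) tail were set beside the histone levels, as a measure of how much such RNA each library held. Their part in the histone values entered only as the covariate above. Every normoxia library except MIR210-KO 3 held more of them than any hypoxia library. In the oxygen comparisons the covariate therefore cannot tell their part from that of oxygen. Of 17 such RNAs 1 passed the filter, RN7SL2, the RNA of the signal recognition particle, and RN7SK, RN7SL1 and RMRP were at 0. The sum of these RNAs and of all rRNA genes averaged 19.4 CPM in hypoxia MIR210HG-KO, 15.0 in hypoxia MIR210-KO and 21.4 in hypoxia WT, beside 185, 153 and 175 CPM in normoxia MIR210HG-KO, MIR210-KO and WT. RN7SL2 alone averaged 18.4, 14.5 and 20.9 CPM in these hypoxia groups and 184, 152 and 175 in the normoxia groups. The sum therefore mostly reflects that 1 RNA. RN7SL2 fell with hypoxia (-3.33 ± 0.51, adjusted p = 1.75e-06 in MIR210HG-KO, -3.39 ± 0.52, adjusted p = 1.42e-06 in MIR210-KO and -3.06 ± 0.50, adjusted p = 3.60e-06 in WT), while the histone sum was higher in hypoxia in each genotype. Between genotypes it was not called, with 0.07 ± 0.45, adjusted p = 0.924 in MIR210HG-KO and -0.20 ± 0.45, adjusted p = 0.754 in MIR210-KO against WT in normoxia. In hypoxia single libraries ran from 9.72 to 34.4 CPM and in normoxia from 11.6 to 278. The 11.6 CPM belonged to normoxia MIR210-KO 3, the library with the highest histone sum of its group, while the other 3 libraries of that group held 171 to 224 CPM. The median log2 CPM of genes of at least 8000 bases minus that of genes of at most 1500 bases was 5.79 to 5.98 in hypoxia and 5.92 to 6.09 in normoxia.

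**Figure D5:**
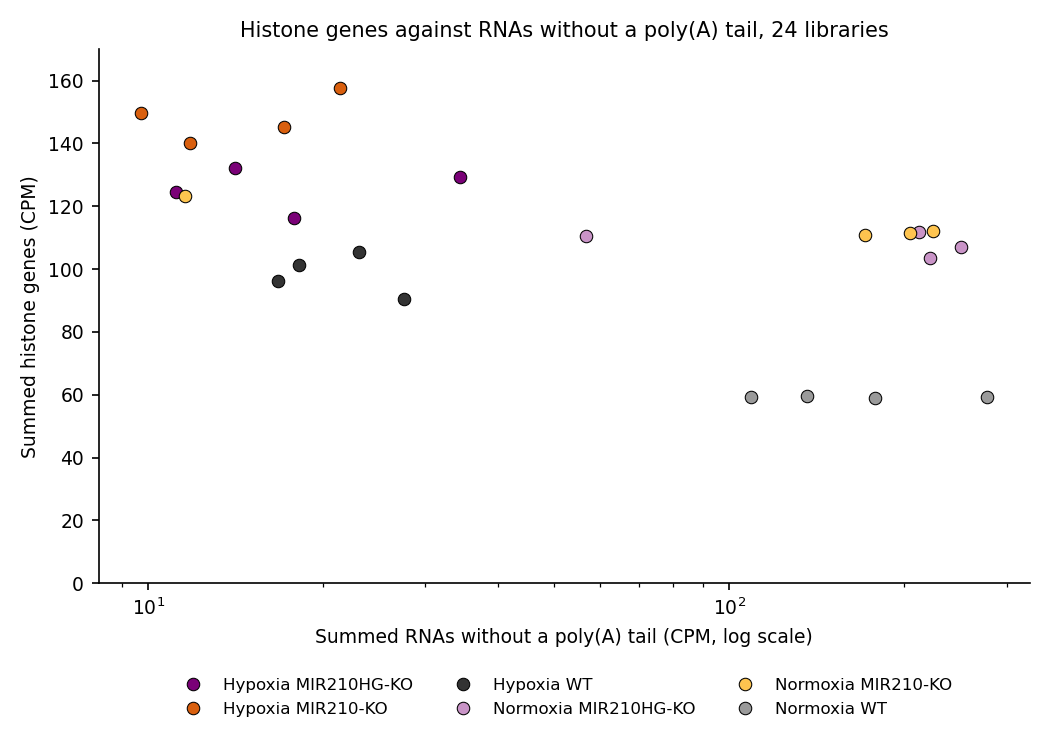
Summed level of the 70 histone genes (CPM, y axis) against the summed level of RNAs without a poly(A) tail (CPM, log x axis), 1 point per library, coloured by group. Hypoxia libraries lie at 9.72 to 34.4 CPM on the x axis, and normoxia WT libraries hold the lowest histone sums, 59.1 to 59.6 CPM, at x values that overlap those of the normoxia knockouts.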

How the data were processed

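Gene-level read counts, not normalised, were deposited by the authors in 2 tables, 1 for each oxygen level. The submitters' processing notes name STAR 2.6.1d, featureCounts 1.5.0-p3, DESeq2 1.20.0, edgeR 3.24.3 and GRCh38; the strand setting, the treatment of reads matching several genes and the annotation are not given in the sources used here. Sample columns were matched to GEO's labels by name.

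The analysis used edgeR 4.0.16 and limma 3.58.1 under R 4.3.3: filterByExpr over the 6 groups (minimum count 10, about 0.354 CPM), which kept 19952 genes, TMM scaling, and 1 quasi-likelihood model of the 24 libraries with 6 group means. The 12 comparisons were tested two-sided, with Benjamini-Hochberg adjustment over all genes tested and calls under 0.05. A ± after CPM is a standard deviation and after a log2 value a standard error. Sums carry no test. Depth limits the genes under 1 CPM most. The fit was tested on simulated data.

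Members and gene lists were chosen with earlier results of these data known. Values in every library are given for the 2 genes of each type with the highest mean CPM per kilobase. Fold changes are given for the 4 highest and 4 lowest called histone genes of each comparison, the 2 most changed called genes of each other list where described, SLBP and NPAT, and other comparisons of these genes. HIST1H3E, HIST1H2AG, HIST1H2BJ and similar genes with group means were picked from those named. Stem-loops come from GENCODE 29 transcripts and promoters from RefSeq (GRCh38.p14). Alternatives were DESeq2 1.42.0, RLE and upper quartile scaling, no filter and a stricter one (1 CPM in 4 libraries), a replicate block, covariates for RNAs without a poly(A) tail and for long (at least 8000 bases) over short (at most 1500 bases) genes, fits to the groups compared only, and leaving out 1 library or 4 libraries.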

Additional observations from a re-analysis of the deposited data

Results flagged for a closer look

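In 6 of 96 groups of 4 libraries examined, 1 library lay further from the other 3 than the 95% critical value of Dixon's test allows; chance gives about 1 in 20 groups, so this number is near what chance gives. HIST1H2BK had 34.8 CPM in hypoxia MIR210HG-KO 1, against 30.4 to 31.1 in its group, and 41.4 CPM in normoxia MIR210HG-KO 1, against 35.3 to 35.5. HIST2H2AC had 1.12 CPM in hypoxia MIR210-KO 2, against 0.598 to 0.665, and 1.17 CPM in normoxia MIR210-KO 3, against 0.559 to 0.646. The sum of H4 genes was 12.8 CPM in hypoxia MIR210HG-KO 4, against 16.0 to 16.5. The sum of all 70 genes was 123 CPM in normoxia MIR210-KO 3, against 111 to 112 in its group.

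The oxygen response differed between genotypes at the following genes, by the interaction term of the edgeR quasi-likelihood model, given as log2 differences between responses. MIR210HG-KO minus WT was -1.38 for HIST1H1C, -0.92 for HIST1H2AC, -1.19 for HIST1H2BJ, -0.86 for HIST1H2BN and -1.89 for HIST1H3B. It was -0.89 for HIST2H2BE, -0.41 for HIST3H2A, -1.23 for HIST3H2BB and 2.48 for HIST3H3. MIR210-KO minus WT was -0.76 for HIST1H1C, 0.89 for HIST1H2AG, -1.05 for HIST1H2BJ, -1.30 for HIST1H2BN, -1.96 for HIST2H4A and 3.04 for HIST3H3. MIR210HG-KO minus MIR210-KO was -0.62 for HIST1H1C. In WT HIST3H3 had 8 counts in hypoxia and 33 in normoxia, and HIST2H4A had 8 counts in normoxia.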

How the results depend on the processing

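Of 1110 recomputed fold changes of 58 genes and comparisons named, 1025 kept direction and side of the threshold, 85 kept direction but were no longer called, and 0 turned round; DESeq2 gave no adjusted p for HIST3H3 in the oxygen response of MIR210-KO minus that of WT. The number of called histone genes moved by less than 1.5 times under DESeq2, other scalings, filters, covariates and group choices in 11 comparisons. The exception was the oxygen response of MIR210HG-KO minus that of MIR210-KO, with 1 call, 2 under DESeq2, upper quartile scaling, no filter, the stricter filter or either covariate, and 4 without the 4 libraries that stood apart. The cause was not tested.

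With 1 library left out at a time, the count in MIR210HG-KO against WT ranged from 14 to 16 in hypoxia and 16 to 19 in normoxia, and in MIR210-KO against WT from 17 to 18 in hypoxia and 12 to 14 in normoxia. MIR210HG-KO against MIR210-KO gave 6 to 10 in hypoxia and 6 to 11 in normoxia. Hypoxia against normoxia gave 9 to 13 in MIR210HG-KO, 13 to 16 in MIR210-KO and 15 to 17 in WT. The interactions gave 6 to 11 (MIR210HG-KO minus WT), 5 to 8 (MIR210-KO minus WT) and 1 to 3 (MIR210HG-KO minus MIR210-KO).

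Same-numbered replicates did not deviate together (correlations of -0.115 to 0.120, 1 of 36 pairs over 0.1, own number the best match in 6 of 36), so the numbers pair nothing known. With the replicate number as a block the counts were 15 and 19 for MIR210HG-KO against WT in hypoxia and normoxia, 18 and 13 for MIR210-KO, and 9 and 10 between the knockouts. With the block the oxygen counts were 12, 14 and 17 in MIR210HG-KO, MIR210-KO and WT, and the interactions gave 8, 6 and 1.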

Other observations

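Of the 39 histone genes too scarce to test, HIST1H4C had the most counts, 132 over all 24 libraries, followed by HIST1H2AH with 123, HIST1H4D and HIST2H3D with 106 each and HIST2H4B with 101. The 8 genes with 0 counts in every library were HIST1H2AA, HIST1H2AD, HIST1H2AK, HIST1H2BA, HIST1H3D, HIST1H4F, HIST1H4L and HIST2H3PS2. HIST1H2AA and HIST1H2BA, which lie head to head 250 bases apart, are testis-type genes.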
